A study of Homo sapiens with 33 samples.

Results

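H3K27me3 was compared between EZH2-/+ and EZH2+/+ human ESCs at every window around an annotated start site on chromosomes 1 to 22. These were 149487 of the 153958 windows in the ChIP-seq table, and they carried 34447 gene names. All cells were of the H9 line, an established human ESC line, and were sorted for the surface antigen SSEA4 after culture on irradiated mouse feeder cells. EZH2+/+ cells carried both intact alleles, and EZH2-/+ cells carried a mutation in 1 EZH2 allele, made with Cas9 and a guide RNA to an early exon, after which single clones were picked and expanded. Whether the EZH2-/+ libraries came from 1 clone or from several is not given in the sources used here, so an effect of the lost allele and a difference between clones cannot be told apart. The comparison used 4 of the 21 ChIP-seq columns: H3K27me3 and input (chromatin with no antibody) in each genotype. EZH2-/- ESCs served as a background for the antibody, and EZH2-/-+EZH2 ESCs, in which doxycycline switched on an EZH2 transgene, served to class promoters without using the compared columns. Both of these came from an EZH2-/+ line. RNA-seq of 3 libraries for EZH2+/+ and 3 for EZH2-/+ ESCs was the independent readout.

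EZH2 is the main catalytic subunit of Polycomb repressive complex 2 (PRC2), which places methyl groups on lysine 27 of histone H3. The trimethylated form, H3K27me3, covers the promoters of silent developmental regulators in ESCs, above all those of the HOX clusters, and most of these promoters are rich in CpG dinucleotides. Many of them also carry H3K4me3, a mark of active or poised start sites, and are then called bivalent.

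Promoters from both ends of the comparison are shown because CpG content differed between them, with each CG dinucleotide in capitals (RefSeq, build GRCh38.p14, from 250 bases before the start site to 50 after it). SP5 and GBX2 were among the largest rises of H3K27me3 in EZH2-/+ ESCs. SP5, a zinc finger transcription factor gene, lies at chr2:170715087-170715386 on the plus strand, and GBX2, a homeobox gene of the early nervous system, at chr2:236168337-236168636 on the minus strand. LCNL1, a lipocalin-like gene, and SLC2A2, which encodes the glucose transporter GLUT2, were among the largest falls. They lie at chr9:136982743-136983042 (plus strand) and chr3:171026671-171026970 (minus strand).
SP5: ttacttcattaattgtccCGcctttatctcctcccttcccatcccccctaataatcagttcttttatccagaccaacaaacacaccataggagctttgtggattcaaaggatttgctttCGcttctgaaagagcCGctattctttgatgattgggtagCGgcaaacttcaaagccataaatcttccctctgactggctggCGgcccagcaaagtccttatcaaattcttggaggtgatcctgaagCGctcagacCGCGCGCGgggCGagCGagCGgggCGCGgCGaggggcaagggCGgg
GBX2: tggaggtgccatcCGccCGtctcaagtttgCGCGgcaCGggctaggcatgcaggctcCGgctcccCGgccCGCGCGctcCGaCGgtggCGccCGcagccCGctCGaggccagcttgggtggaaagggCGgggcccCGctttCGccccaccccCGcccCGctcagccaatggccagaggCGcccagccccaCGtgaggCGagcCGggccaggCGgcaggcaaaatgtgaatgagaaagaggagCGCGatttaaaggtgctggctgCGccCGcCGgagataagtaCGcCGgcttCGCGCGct
LCNL1: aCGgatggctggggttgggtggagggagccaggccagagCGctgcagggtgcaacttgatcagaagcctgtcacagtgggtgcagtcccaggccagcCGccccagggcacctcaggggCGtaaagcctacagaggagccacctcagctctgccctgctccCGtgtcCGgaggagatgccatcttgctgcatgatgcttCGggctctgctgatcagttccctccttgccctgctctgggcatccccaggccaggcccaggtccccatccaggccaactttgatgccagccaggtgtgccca
SLC2A2: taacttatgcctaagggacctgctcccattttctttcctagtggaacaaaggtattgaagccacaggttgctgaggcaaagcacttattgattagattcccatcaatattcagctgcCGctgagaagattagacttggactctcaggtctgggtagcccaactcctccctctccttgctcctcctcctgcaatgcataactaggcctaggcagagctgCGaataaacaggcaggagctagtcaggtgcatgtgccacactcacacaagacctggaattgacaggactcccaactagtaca
The SP5 sequence holds 17 CG dinucleotides and that of GBX2 holds 36, against 7 in LCNL1 and 2 in SLC2A2. At least 1 CG was present in 96% of the 33725 autosomal promoter sequences of the same length, with a median of 14 and quartiles of 4 and 28. Of the 20 genes with the largest changes, 12 had a sequence under their symbol. Inside the measured windows, the 9 sequences of rises held from 4 CG (ZEB2-AS1) to 36 CG (GBX2), with WLS entered at 2 overlapping start sites. Only the 2 shown were found there for falls. The sequence of another fall, IGDCC4, lay outside its window and held 48 CG, more than any rise. Of the rises, sequences of PSMG4 (29 CG) and of another APOLD1 start site (5 CG) also lay outside.

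ChIP-seq depth (M, mega-reads a library, as the geometric mean of the averaged libraries) was 9.11 M for EZH2+/+ and 11.9 M for EZH2-/+ H3K27me3, and 22 to 23.8 M for input. Each column was a mean of libraries (2 in the labels), so no replicate error or p value can be given for a difference in H3K27me3, and intervals below cover counting error only. A promoter was said to rise or fall when it differed by at least 1 on the log2 scale, a fold of 2. Values are reads in a 5 kb window scaled to the size of the library (RPM), and differences are log2(RPM + 0.1) in EZH2-/+ minus EZH2+/+ ESCs. RPM is a share of each library, so a change in the total amount of H3K27me3 per cell cannot be told apart from no change.

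Across all windows, H3K27me3 in EZH2-/+ ESCs stayed close to that in EZH2+/+ ESCs. The median level was 1.5 RPM in the EZH2+/+ and 1.28 RPM in the EZH2-/+ column, and the median log2 difference was -0.14 (quartiles -0.46 and 0.15). Over gene promoters, taking 1 window per gene name, the 2 genotypes correlated at Pearson's r = 0.952 and Spearman's rho = 0.917 (across 34447 genes, which are not independent replicates). A rise was seen at 1439 windows (0.963%) and a fall at 7074 (4.73%). Of the gene promoters, 262 rose (0.761%) and 1132 fell (3.29%). Most of the falls were at low levels in EZH2-/-+EZH2 ESCs, where counting error is large: 1111 lay below 0.5 RPM, 3642 between 0.5 and 1 RPM and 1926 between 1 and 2 RPM. That is not the level in the compared columns. With at least 1 RPM in either genotype, 4996 windows fell and 1133 rose. At the 10 largest falls named below, EZH2+/+ ESCs had 5.23 to 20.7 RPM and EZH2-/-+EZH2 ESCs 0.562 to 2.68 RPM. When differences were centred on the 89667 windows not above input in EZH2-/-+EZH2 ESCs, whose median was -0.23, the overall median became 0.08 and the split turned to 3895 rises (54.8% of the calls, from 16.9%) and 3212 falls.

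The difference depended on how much H3K27me3 a window held. Windows were ordered by their H3K27me3 in EZH2-/-+EZH2 ESCs, a column outside the comparison but from cells that descend from an EZH2-/+ line. Whether this favours windows high in EZH2-/+ ESCs was not tested. Below 0.5 RPM the median difference was -0.28, and 31.2% of 10519 windows were higher in EZH2-/+ ESCs. It was 0.02 between 5 and 10 RPM and 0.13 between 10 and 20 RPM. Between 20 and 40 RPM the median was 0.22, with 92.0% of 2405 windows higher. At 40 RPM or more it was 0.24, and 457 of 459 windows were higher, from a median of 46.8 RPM in EZH2+/+ to 56.0 RPM in EZH2-/+ ESCs. Input medians climbed as well, from -0.02 in the lowest class through 0.07, 0.1, 0.1, 0.11 and 0.11 to 0.17 between 20 and 40 RPM, and were 0.1 at 40 RPM or more, and the part of input in the result was not tested. In EZH2-/- ESCs the same windows had medians of 0.512 to 3.65 RPM.

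**Figure D1:**
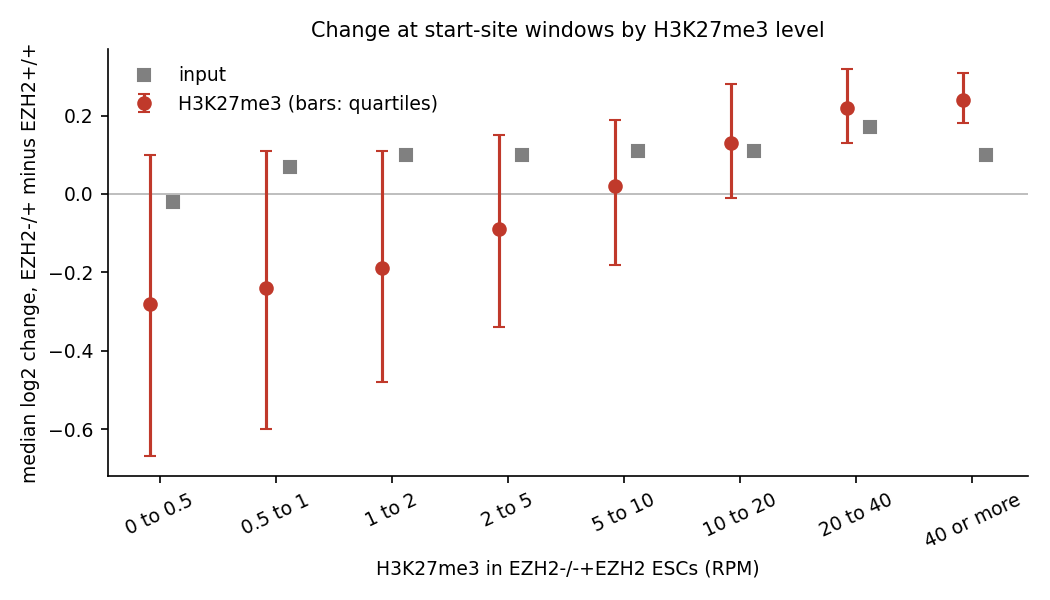
Median log2 difference between EZH2-/+ and EZH2+/+ ESCs (vertical axis) for windows grouped by H3K27me3 in EZH2-/-+EZH2 ESCs (horizontal axis, RPM). Red points with quartile bars are H3K27me3 and climb from -0.28 to 0.24, and grey squares are input, which climb from -0.02 to 0.17 and stand at 0.1 in the highest class.

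Promoters were also classed as H3K27me3-rich by the study's rule (H3K27me3 above and input below 0.1 on the log2 RPKM scale, RPM per kilobase), applied to EZH2-/-+EZH2 ESCs. The 4982 rich promoters had a median of 13.7 RPM in EZH2+/+ ESCs and 14.5 RPM in those with 1 intact allele, with 69.3% higher in EZH2-/+ ESCs and a median difference of 0.13. The other 29465 promoters had a median of -0.16. With the input difference subtracted the median of the rich promoters was -0.01, and with centring it was 0.35. The result depended on the column used for the class. Classed by the EZH2+/+ columns instead, 6117 promoters were rich, with a median of 0.07 and 59.1% higher in EZH2-/+ ESCs. Of these 36 rose and 89 fell, against 51 rises and 10 falls among the 4982. Within the 4982, the 4415 that also carried H3K4me3 had a median of 0.13, and the 567 without it 0.08. Rich promoters with more EZH2 bound in EZH2+/+ ESCs differed more: in 4 groups of like size, the one with the least EZH2 had a median of 0.04 and the one with the most 0.21, where 89.2% were higher in EZH2-/+ ESCs. CpG content ran the same way, from a median of 0.07 in the lowest of 4 groups by observed-to-expected CpG ratio to 0.19 in the highest. Input medians moved with these groups too, from 0.08 to 0.16 by CpG ratio and from 0.09 to 0.17 by EZH2, and their part in the result was not tested. The H3K27me3 level also climbed from the lowest to the highest EZH2 group, from 9.0 to 28.4 RPM in EZH2+/+ and from 7.54 to 25.3 RPM in EZH2-/-+EZH2 ESCs. Windows classed by level alone went from 0.02 (5 to 10 RPM) to 0.22 (20 to 40 RPM). Bound EZH2 and H3K27me3 level were not separated.

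The HOX genes, transcription factors that pattern the body axis and are silenced by PRC2 in ESCs, all had more H3K27me3 in EZH2-/+ than in EZH2+/+ ESCs. This held for 39 of 39 promoters, with a median difference of 0.25, against 40.1% of all gene promoters. Windows of like level (40 RPM or more in EZH2-/-+EZH2 ESCs, where the HOX median was 46.5 RPM) did the same. There 457 of 459 were higher, with a median of 0.24. HOX windows are counted among the 459, so whether the shift was particular to HOX genes was not tested. The median input difference of the HOX genes was 0.17. The cluster medians went from 46.6 to 56.3 RPM for HOXA on chromosome 7, from 58.0 to 63.5 RPM for HOXB on chromosome 17, from 51.3 to 62.3 RPM for HOXC on chromosome 12 and from 45.8 to 56.0 RPM for HOXD on chromosome 2. In EZH2-/- ESCs the cluster medians were 2.83 to 4.34 RPM. One end of HOXB stood out. HOXB1 rose from 13.9 to 29.8 RPM (log2 1.09) and HOXB2 from 18.2 to 43.3 RPM (1.25). These were the HOX promoters with the least H3K27me3 in EZH2+/+ ESCs, and in EZH2-/+ ESCs HOXB2 stood close to HOXD8 (43.5 RPM), the lowest of the HOXD cluster there. HOXA2 went from 30.8 to 48.0 RPM, a log2 difference of 0.64 that was below the fold. Another 35 HOX promoters differed by 0.04 to 0.39. With the input difference subtracted the HOX median was 0.17, and with centring 0.48.

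**Figure D2:**
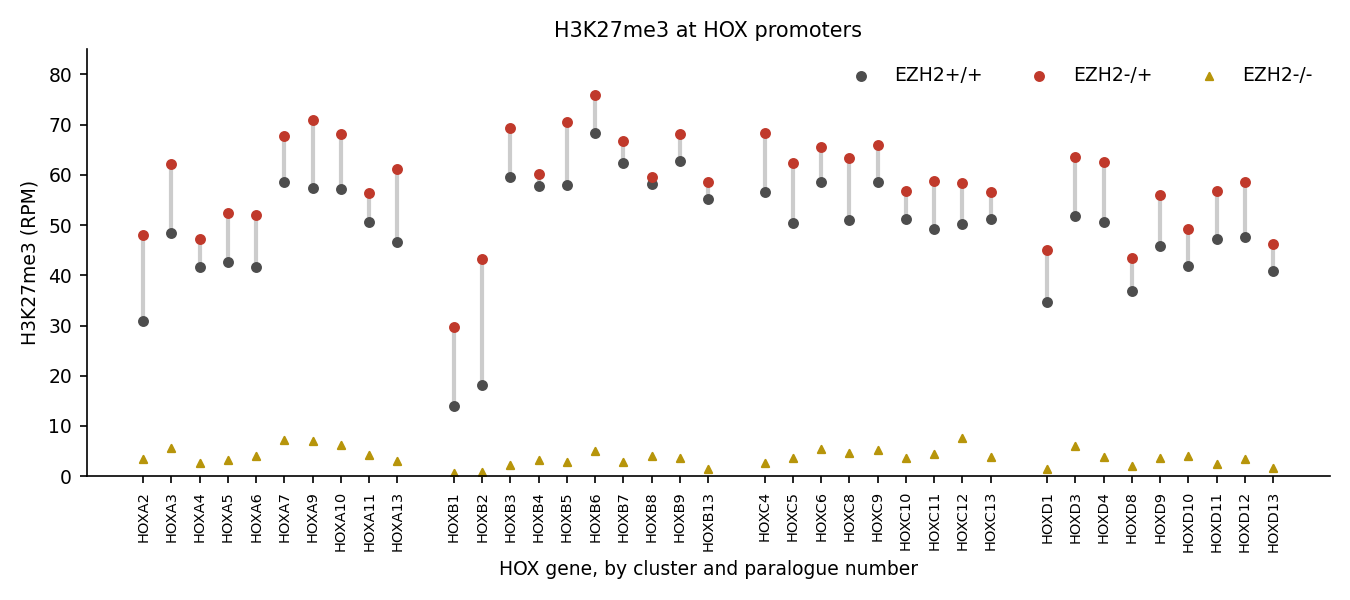
H3K27me3 (RPM, vertical axis) at 38 HOX promoters, by cluster and paralogue number, in EZH2+/+ (black), EZH2-/+ (red) and EZH2-/- ESCs (triangles). Every red point lies above its black point, and the widest gaps are at HOXB2, HOXA2 and HOXB1.

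Other developmental regulators also had more H3K27me3 in EZH2-/+ ESCs at most promoters, as did windows of like level. In EZH2-/-+EZH2 ESCs the list medians were 32.6 RPM (neural), 29.6 RPM (mesoderm and heart) and 29.8 RPM (endoderm). They were 16.9 RPM for blood and endothelium and 16.3 RPM for signalling. Of all windows at 20 to 40 RPM there, 92.0% were higher (median 0.22), and at 10 to 20 RPM 74.4% (median 0.13). Windows of the listed genes are counted among these. Of 73 regulators of neural fate, 69 had more H3K27me3 in EZH2-/+ ESCs (median 0.25), with 5 rises and 1 fall. The largest was IRX2, an Iroquois homeobox gene at a low level (1.42 to 4.54 RPM, log2 1.61), and the most marked was TLX1 (59.7 to 71.1 RPM, 0.25). The fall was FOXD3, a forkhead gene of the neural crest and of the pluripotent state (27.1 to 11.7 RPM, -1.20). Regulators of mesoderm and heart had a median of 0.17 (25 of 29 higher), those of endoderm 0.15 (15 of 17) and those of blood and endothelium 0.24 (13 of 16). Within mesoderm, TBX6 fell from 1.58 to 0.367 RPM (-1.85), both low levels, and MESP1 went from 16.0 to 28.1 RPM (0.81). Of 54 signalling ligands and antagonists, 40 were higher (median 0.23). LEFTY2, which encodes an antagonist of NODAL, fell from 4.84 to 0.798 RPM (-2.46), and WNT8A rose from 0.828 to 2.11 RPM (1.25). The cell cycle inhibitors had a median of 0.19, and CDKN1B, which encodes p27, rose from 5.16 to 11 RPM (1.07). Among Polycomb genes themselves the medians were 0.12 for PRC1 subunits, with a rise at YAF2 (3.72 to 8.46 RPM), and 0.11 for PRC2 subunits, where C17orf96 went from 6.94 to 13.6 RPM (0.96).

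The medians of pluripotency factors, housekeeping genes and 11 other gene families ran from -0.41 to 0.05. Pluripotency factors had a median of -0.41, with 7 of 17 higher. TDGF1, which encodes the NODAL co-receptor Cripto, fell from 11.2 to 2.07 RPM (-2.38), whereas UTF1, the most marked of them, went from 25.5 to 28.9 RPM (0.18). DPPA4 was higher (1.37), from 0.499 to 1.45 RPM, with an input difference of 0.62. Housekeeping genes had a median of -0.23, germline genes -0.24, keratins -0.17, ribosomal proteins -0.10, histone genes -0.08, clustered protocadherins -0.08 and keratin-associated proteins -0.08. Olfactory receptors had -0.06, zinc finger genes of chromosome 19 had 0.00, potassium channels 0.02, imprinted genes 0.04 and collagens 0.05. The median over all gene promoters was -0.11, and every one of these families would lie 0.23 higher after centring.

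The largest changes were sought among 6329 promoters with at least 5 RPM in either genotype and an input difference within 0.5. Of these, 70 rose (1.11%) and 95 fell (1.5%). The 70 names lay in 51 stretches more than 100 kb apart and the 95 in 77, since neighbouring start sites share windows. Close to the fold, ZNF516 was the last inside (2.69 to 5.51 RPM) and RP11-699A5.2 the first outside (13.5 to 26.9 RPM) among rises. For falls these were PON1 (5.98 to 2.94 RPM) and RP11-73M7.1 (5.00 to 2.45 RPM). The windows of the 70 had a median observed-to-expected CpG ratio of 0.635, those of the 95 had 0.461, and the 6164 in between had 0.519.

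Largest of the rises was SP5, whose protein acts downstream of WNT signalling (window chr2:170712851-170717851). It went from 6.78 to 26.4 RPM, a log2 difference of 1.95 with a counting interval of 1.67 to 2.22, and stood at 13.9 RPM with the EZH2 transgene on and 1.23 RPM in EZH2-/- ESCs. CRABP2, a retinoic acid binding protein gene (chr1:156703101-156708101), rose from 3.18 to 12.1 RPM (1.90). LRP4, which encodes a receptor of the LDL receptor family (chr11:46916122-46921122), rose from 2.03 to 7.56 RPM (1.85). FOXB1, a forkhead gene of the embryonic brain (chr15:60001722-60006722), rose from 3.00 to 10.6 RPM (1.78). ZEB2-AS1 and its neighbour ZEB2, which encodes a zinc finger repressor, share a start region on chromosome 2, and ZEB2 rose from 2.71 to 8.48 RPM (1.61). GBX2 (chr2:236165869-236170869) reached the highest level of the set, from 15.4 to 42.8 RPM (1.47). PRTG, a member of the immunoglobulin superfamily (chr15:55740034-55745034), rose from 8.21 to 23.3 RPM (1.49). WLS, which encodes the carrier of WNT ligands to the cell surface (chr1:68230053-68235053), rose from 8.15 to 22.8 RPM (1.47). PSMG4 with TUBB2B (1.48 at PSMG4) and APOLD1 with CDKN1B (1.42 at APOLD1) completed the set. All 10 had more H3K27me3 in EZH2-/-+EZH2 than in EZH2+/+ ESCs and less than in EZH2-/+ ESCs, with 0.422 to 1.81 RPM in EZH2-/- ESCs. The 10 were picked for a low EZH2+/+ beside a high EZH2-/+ value, which favours such an order. Their input differences ran from -0.30 to 0.45 and were positive at 8 of 10.

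The largest falls ended near the input level. LCNL1 (chr9:136981502-136986502) went from 10.9 to 1.49 RPM, a log2 difference of -2.80 with a counting interval of -3.32 to -2.28, where the EZH2-/+ input was 1.20 RPM. TDGF1 (chr3:46575265-46580265) came to 2.07 RPM beside an input of 1.79 RPM. SLC2A2 (chr3:171024220-171029220) fell from 5.42 to 1.40 RPM (-1.88) and IGDCC4, an immunoglobulin superfamily gene (chr15:65393929-65398929), from 6.33 to 1.53 RPM (-1.98). LY6G6E, in the major histocompatibility region of chromosome 6, fell from 7.65 to 1.34 RPM (-2.43). The non-coding or unnamed loci AP000711.1 (20.7 to 3.23 RPM), RP11-1085N6.2 (8.76 to 1.41 RPM), RP11-326C3.11 beside IFITM1 (7.81 to 1.79 RPM), AC012594.1 (5.23 to 1.34 RPM) and AC009495.2 beside GALNT3 (9.79 to 2.70 RPM) were the others. Over the 10 the EZH2-/+ levels were 1.34 to 3.23 RPM. All 10 were also below EZH2+/+ in EZH2-/-+EZH2 ESCs, at 0.562 to 2.68 RPM, and these cells descend from an EZH2-/+ line. The 10 were picked for a high EZH2+/+ beside a low EZH2-/+ value, which favours this order in any other column.

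**Figure D3:**
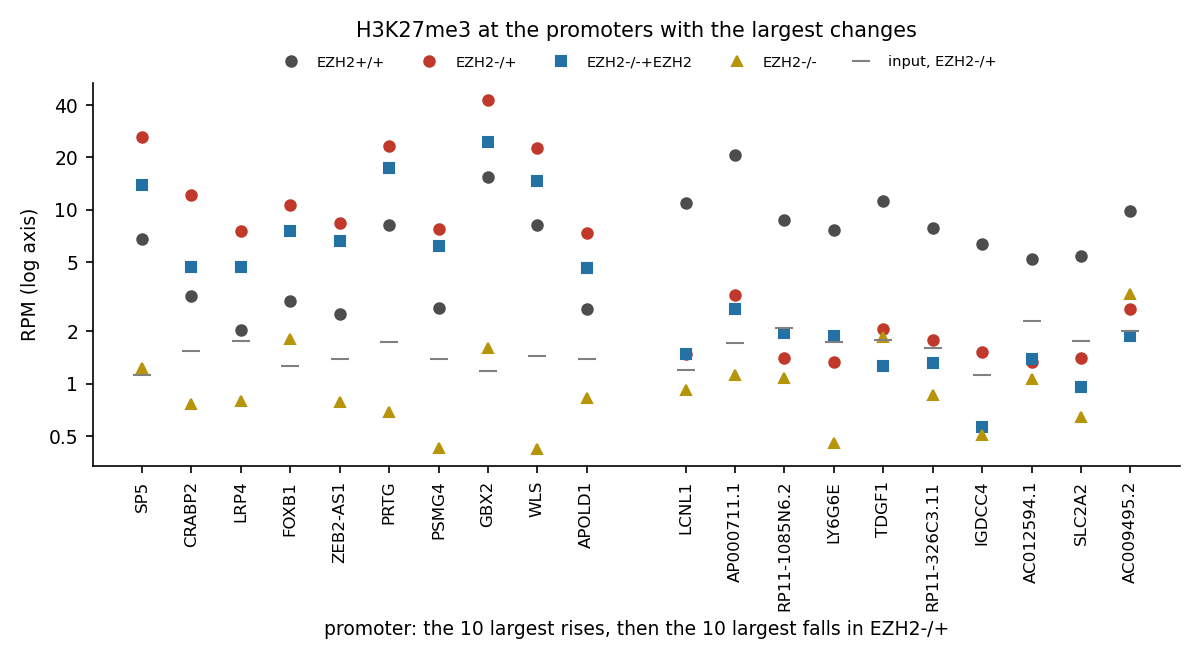
H3K27me3 (RPM, log axis) at the 10 promoters with the largest rises (left) and the 10 with the largest falls (right) in 4 genotypes, with EZH2-/+ input as a dash. Rises lie between 7.4 and 42.8 RPM in EZH2-/+ ESCs, and falls between 1.34 and 3.23 RPM, close to input; at LCNL1 the EZH2-/+ point is hidden under that of EZH2-/-+EZH2 ESCs, both at 1.49 RPM.

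At the 10 largest rises of H3K27me3, the other promoter marks were mostly level or higher in EZH2-/+ ESCs, with no value past the fold except H3K4me3 at LRP4. For H3K4me3, 9 of 10 were higher (median log2 difference 0.60, from -0.46 at GBX2 to 1.05 at LRP4), beside a median of 0.56 over bivalent rich promoters. The EZH2+/+ H3K4me3 libraries held 3.43 M reads each against 12.3 M in EZH2-/+ ESCs. H3K27ac, a mark of active promoters and enhancers, had a median of 0.25 at the rises and 0.54 at the falls. Over bivalent rich promoters its median was also 0.25, and it was 0.06 over all 70 rises and 0.40 over all 95 falls. Of the 10 falls 9 were higher, among them TDGF1 (2.67 to 5.13 RPM). H3K4me1, found around enhancers, was higher at 10 of 10 rises (median 0.54) and at 5 of 10 falls (median 0.01). Its median was 0.11 over bivalent rich promoters, 0.27 over all 70 rises and 0.22 over all 95 falls. H3K4me3 fell past the fold at 3 of the falls, LCNL1 (4.27 to 0.646 RPM), SLC2A2 (2.89 to 0.398 RPM) and AC009495.2 (14.2 to 6.83 RPM).

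Input showed a few broad differences between the lines. The median input difference over all windows was 0.08, and over 292 bins of 10 Mb it ran from -0.13 to 0.34. The end of chromosome 15, from 85 Mb to 102 Mb, had an input difference of 0.31, against 0.07 on the rest of that chromosome, and was also higher in EZH2-/- (0.19) and EZH2-/-+EZH2 ESCs (0.26). No promoter among the 70 rises and 95 falls lay there, but only 31 of the 6329 promoters searched did, too few for this to be read. H3K27me3 in the region differed by 0.09, against -0.10 on the rest of chromosome 15. On chromosome 17 the input difference was 0 from 45 Mb to 83.2 Mb, against 0.16 on the rest, and input there was below that of EZH2+/+ ESCs in the EZH2-/- (-0.19) and EZH2-/-+EZH2 columns (-0.13). The region holds the HOXB cluster, and 6 of its 248 searched promoters were rises and 5 were falls, beside 1.11% and 1.5% of all 6329. H3K27me3 differed by -0.26 there, against -0.1 on the rest of chromosome 17. These regions were chosen after their values were seen, and their part in the results was not tested.

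Transcripts of EZH2 itself came to 68.6, 63.3 and 59.5 RPM in EZH2+/+ libraries, against 55.4, 52.3 and 45.7 RPM with 1 allele disrupted. The groups did not overlap, yet the log2 fold change of -0.32 (standard error 0.17) had an adjusted p of 0.56 in limma (range over alternatives 0.29 to 0.91) and did not pass 0.05. Reads from the disrupted and the intact allele are counted together. Markers of undifferentiated ESCs summed to 2520 to 3130 RPM in EZH2+/+ ESCs and 3370 to 4080 RPM in those with 1 intact allele, and 1 of 11 (TDGF1) was called higher, or 3 of 11 with a replicate block (POU5F1 and DPPA4 added, limma adjusted p = 0.095 and 0.063 without it, 0.029 and 0.023 with it). Endoderm markers summed to 15.9 to 41.7 RPM and 9.52 to 429 RPM, mesoderm markers to 10.5 to 28.0 RPM and 2.76 to 41.3 RPM, and trophectoderm markers to 3.65 to 9.24 RPM and 3.80 to 10.4 RPM, with none called and 1 trophectoderm marker listed at 0. Neural markers summed to 8.13 to 20 RPM in EZH2+/+ and 3.28 to 5.57 RPM in EZH2-/+ ESCs, with SOX1 called lower. Fibroblast markers summed to 212 to 303 RPM and 116 to 194 RPM, with no gene called and 1 called lower with a replicate block (COL1A1, limma adjusted p = 0.024). The part of these marker differences in the results below was not tested, and fewer cells of a type cannot be told apart from less RNA per cell.

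Genes whose promoters rose in H3K27me3 had less RNA in EZH2-/+ ESCs. Of 20608 genes tested with limma, 199 were lower (0.966%) and 37 higher (0.18%) in EZH2-/+ than in EZH2+/+ ESCs at an adjusted p under 0.05. Of the 70 promoters that rose, 57 had a tested gene, and 21 of these were called lower (36.8%) and 0 higher (0 also at an unadjusted p under 0.05, where 44 were lower). At that unadjusted p, 1661 of all 20608 genes were lower and 504 higher. Among the 4530 genes within the fold, described below, 568 were lower and 188 higher. The 21 lay in 17 of the 43 stretches tested, and overlapping genes counted without strand share reads. Their RNA was lower in 55 of 57 genes, with a median log2 fold change of -1.40, against -0.09 over all genes tested. Among the 4530 tested genes whose promoters stayed within the fold, 81 were called lower (1.79%) and 14 higher (0.309%), with a median of -0.15. Across all 4654 of these genes the H3K27me3 and RNA differences correlated at Pearson's r = -0.441 and Spearman's rho = -0.423, and within the fold at -0.391 and -0.397 (across genes, as a description). From the 6 EZH2+/+ and EZH2-/+ libraries alone 4 of 57 were called lower, and with no filter on low genes 2 of 57, where the calls over all genes numbered 23 and 46. In the fit blocked by library number, 34 of 57 were called lower, and 446 (2.16%) lower and 148 (0.718%) higher of all genes. Leaving out a library gave 10 of 56 without EZH2+/+ library 2, 12 of 57 without EZH2-/+ library 2 and 34 of 57 without EZH2-/+ library 3, whereas the overall calls went from 64 without EZH2+/+ library 2 to 602 without EZH2-/+ library 3.

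**Figure D4:**
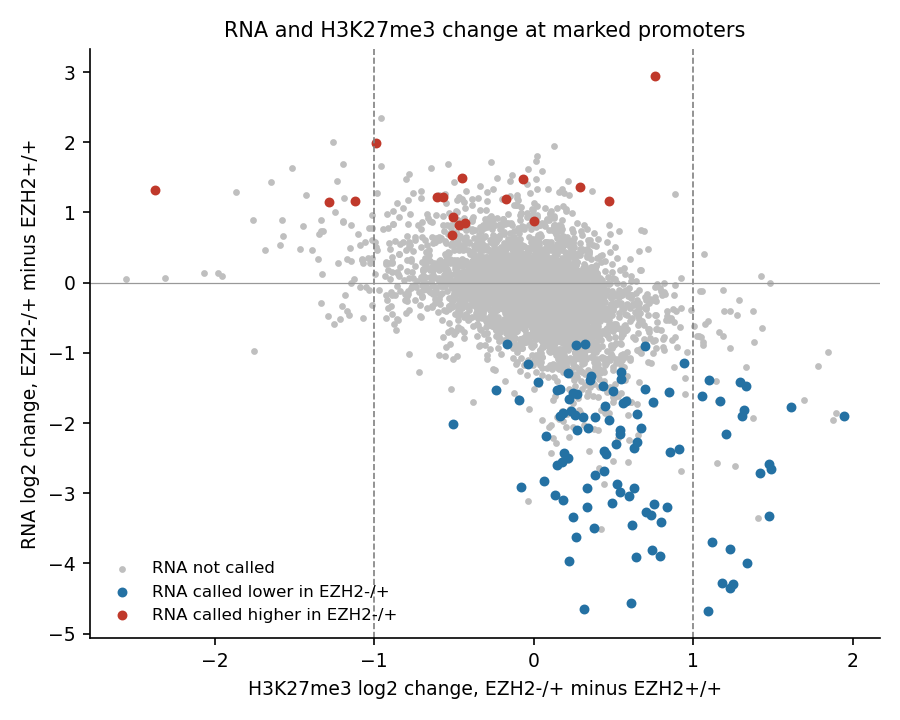
RNA log2 difference (vertical axis) against H3K27me3 log2 difference (horizontal axis), EZH2-/+ minus EZH2+/+ ESCs, for 4654 promoters with at least 5 RPM in either genotype. Blue points are genes called lower and red points genes called higher by limma, dashed lines mark the fold, and the 57 genes right of the right line include 21 blue and 0 red points.

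SP5 transcripts came to 72.4, 68.3 and 64.2 RPM in the EZH2+/+ libraries and to 21.5, 14.9 and 19 RPM in the EZH2-/+ libraries. The groups were far apart, with a log2 fold change of -1.90 (standard error 0.28, limma adjusted p = 0.0078, range over alternatives 0.0028 to 0.078, n = 3 a group). GBX2 was 25.1, 19.7 and 26 RPM against 3.57, 1.23 and 2.58 RPM. It fell by 3.32 (limma adjusted p = 0.0025) and was called under all 12 alternatives tried. WLS was 90.3, 148 and 83.2 RPM against 13.9, 12.3 and 30 RPM, and fell by 2.58 (limma adjusted p = 0.014). PRTG was 205, 329 and 73.9 RPM against 28.1, 20.6 and 33.9 RPM, a wide spread in EZH2+/+ with no overlap, and fell by 2.66 (limma adjusted p = 0.012). ZEB2 was 65, 60.7 and 34.4 RPM against 19.5, 8.79 and 19.2 RPM, and fell by 1.78 (limma adjusted p = 0.025). Without EZH2+/+ library 2 the limma adjusted p was 0.097 for WLS, 0.061 for PRTG and 0.15 for ZEB2, and without EZH2-/+ library 2 it was 0.079, 0.071 and 0.085. Other single libraries mattered too: WLS without EZH2-/+ library 1 had 0.059, and PRTG and ZEB2 without EZH2+/+ library 1 had 0.06 and 0.12. Over all alternatives the adjusted p ran from 0.0048 to 0.11 for WLS, from 0.00073 to 0.11 for PRTG and from 0.01 to 0.15 for ZEB2.

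For the remaining large rises the RNA difference did not pass the test. CRABP2 was 178, 326 and 254 RPM in EZH2+/+ and 47.6, 32.5 and 200 RPM in EZH2-/+ libraries, where the third EZH2-/+ library overlapped the control group (-1.86, limma adjusted p = 0.18). LRP4 was 49.7, 43.1 and 31.6 RPM against 22, 18.6 and 21 RPM (-0.99, limma adjusted p = 0.06), and FOXB1 40.9, 20.9 and 25.6 RPM against 15.4, 8.08 and 14.8 RPM (-1.19, limma adjusted p = 0.094). Neither of these overlapped, which with 3 libraries a group is a description only. With the replicate block the limma adjusted p was 0.03 for CRABP2, 0.012 for LRP4 and 0.0034 for FOXB1, and over all alternatives it ran from 0.0055 to 0.57, from 0.012 to 0.27 and from 0.0034 to 0.35. CDKN1B had -0.59 (limma adjusted p = 0.14, and 0.045 with the block, range 0.018 to 0.47). Without EZH2-/+ library 3, CRABP2 and CDKN1B passed (0.0055 and 0.018), as did LRP4 without EZH2+/+ library 3 (0.039). At 2 of the rises RNA hardly differed: PSMG4 had a log2 fold change of -0.01 and APOLD1 of 0.09 (limma adjusted p = 1.0 and 0.93). Called genes named here after their values were seen were MEIS2 (-3.99, limma adjusted p = 0.0089), NKD1, an inhibitor of WNT signalling (-2.15, 0.0078), ROR2, a WNT receptor (-1.41, 0.0092), SP8 (-1.38, 0.036) and SKIDA1 (-1.81, 0.0088).

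HOX RNA was lower in EZH2-/+ ESCs at several genes, among them those at one end of HOXB. HOXB1 was 13.8, 35.8 and 7.65 RPM in EZH2+/+ and 0.735, 0.389 and 0.463 RPM in EZH2-/+ libraries (-4.68, limma adjusted p = 0.0015, called in all 12 alternatives). HOXB2 was 6.46, 20.3 and 3.71 RPM against 0.367, 0.216 and 0.356 RPM (-4.30, limma adjusted p = 0.0025). No library of 1 group overlapped the other for these genes, but HOXB2 was not called from the 6 libraries alone (limma adjusted p = 0.054, range 0.0014 to 0.055). Its antisense neighbour HOXB-AS1 (-3.80) moved with it, and strand was not used in counting, so their reads cannot be told apart. Of 21 HOX genes tested, 6 were called lower and 0 higher, against 0.966% and 0.18% of all genes tested, among them HOXA2, HOXB3 and HOXC4. HOXB3 fell by 3.97 in RNA (limma adjusted p = 0.0088, range 0.0027 to 0.11, called in 10 of 12 alternatives) with an H3K27me3 difference of 0.22. HOXA2 (limma adjusted p = 0.01) was not called without EZH2+/+ library 2 (0.07) or EZH2-/+ library 2 (0.061). HOXC4 was very low, at 0.333, 0.558 and 0.175 RPM in EZH2+/+ against 0, 0 and 0 RPM in EZH2-/+ libraries. Its log2 fold change was -2.1 (range -2.42 to -0.43, limma adjusted p = 0.037). HOXC4 was not called without EZH2+/+ library 1 (0.14), EZH2+/+ library 2 (0.21), EZH2-/+ library 1 (0.12) or EZH2-/+ library 2 (0.15).

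**Figure D5:**
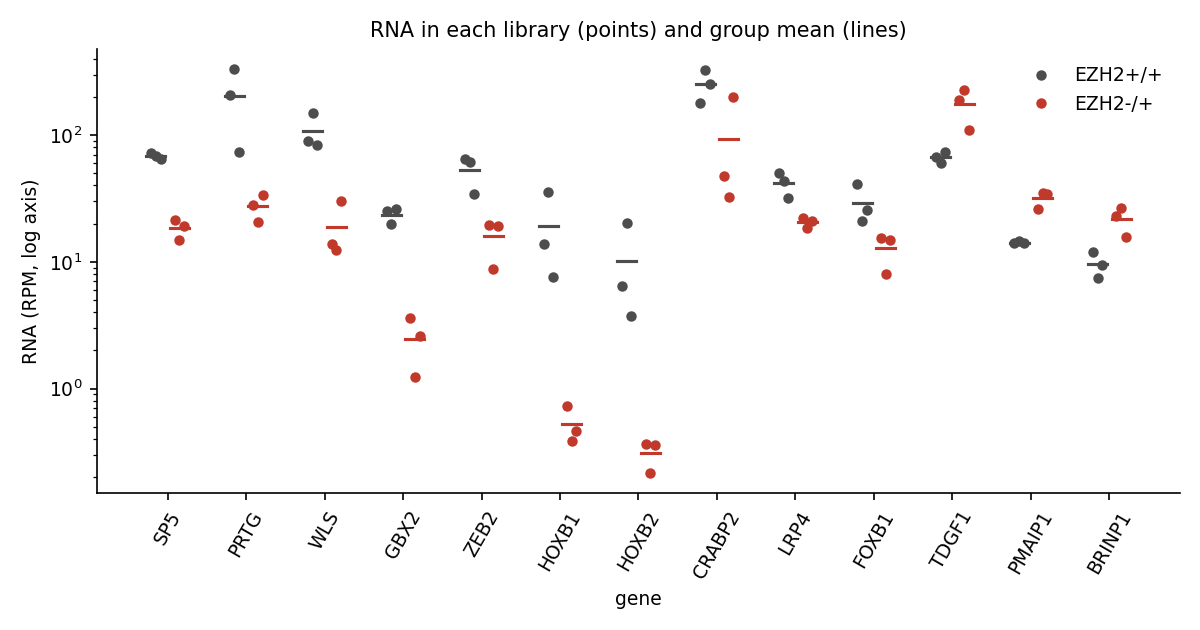
RNA of 13 genes (RPM, log axis) in the 3 EZH2+/+ (black) and 3 EZH2-/+ libraries (red), with lines at the group means. The groups are apart for SP5, PRTG, WLS, GBX2, ZEB2, the HOX genes, LRP4 and FOXB1, overlap for CRABP2, and EZH2-/+ is higher for TDGF1, PMAIP1 and BRINP1.

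Genes whose promoters fell in H3K27me3 leaned the other way, with fewer calls. Of the 95 promoters, 67 had a tested gene, and 3 were called higher (4.48%, against 0.18% of all genes) and 0 lower (2 at an unadjusted p under 0.05, where 24 were higher). At that unadjusted p, 504 of all 20608 genes were higher and 1661 lower. RNA was higher in 52 of 67, with a median log2 fold change of 0.47. TDGF1 was 67.4, 60.6 and 73 RPM in EZH2+/+ and 190, 225 and 110 RPM in EZH2-/+ libraries (1.32, limma adjusted p = 0.01). PMAIP1, which encodes the pro-apoptotic protein NOXA, was 14, 14.5 and 14 RPM against 25.9, 35 and 34.2 RPM (1.14, limma adjusted p = 0.02). BRINP1 was 12, 7.48 and 9.48 RPM against 23, 26.7 and 15.7 RPM (1.16, limma adjusted p = 0.035). Each call was lost without some single libraries. For TDGF1 this was EZH2+/+ library 2 (limma adjusted p = 0.07, range 0.00019 to 0.12). For PMAIP1 they were EZH2+/+ library 1 (0.078), 2 (0.096) or 3 (0.051) and EZH2-/+ library 2 (0.11), in a range of 0.0077 to 0.11. For BRINP1 they were EZH2+/+ library 2 (0.2) or 3 (0.082) and EZH2-/+ library 1 (0.13) or 2 (0.18), in a range of 0.008 to 0.2. H3K27me3 went from 8.17 to 3.30 RPM at PMAIP1 and from 12.1 to 5.53 RPM at BRINP1. With the replicate block 8 of 67 were called higher, after rescaling by the median ratio 6 of 66, and from the 6 libraries alone or with no filter 0. The count was 0 of 66 without EZH2+/+ library 2, 1 of 67 without EZH2+/+ library 3 or EZH2-/+ library 2, and 19 of 66 without EZH2-/+ library 3. IGDCC4, GALNT3 and IFITM1 had log2 fold changes of 0.14, -0.97 and 0.54 and did not pass the test (limma adjusted p = 0.97, 0.34 and 0.4).

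The same relation was seen from the RNA side, using the same libraries. Of the 199 genes called lower, 193 had a promoter in the table, and their median H3K27me3 difference was 0.31, with 73.6% higher in EZH2-/+ ESCs and 13.5% past the fold. Of the 34 genes called higher that had a promoter, the median was -0.49, and 8 were below the fold (23.5%). Genes not called had a median of -0.10, with 40.3% higher in EZH2-/+ ESCs, 0.689% rises and 3.03% falls. In marked promoters with at least 5 RPM, 107 of the 113 genes called lower had more H3K27me3 in EZH2-/+ ESCs, with a median of 0.52. Among uncalled genes with such promoters, 2845 of 4933 had more, with a median of 0.06. Input medians were 0.08 for the lower, 0.17 for the higher and 0.11 for the uncalled genes. The clustered protocadherins supplied 21 of the 199, all of the gamma cluster, whose gene models share exons, so these are not separate observations. Of all genes tested, 0.966% were called lower and 0.18% higher. Among the lists, neural regulators had 5 of 46 tested genes called lower (GBX2, PAX3, POU3F2, POU4F1 and SOX1) and 0 higher, signalling ligands and antagonists 3 of 47 (FGF3, WNT1 and WNT8A), mesoderm and heart regulators 2 of 26 (MEOX1 and MSX1), and endoderm regulators 0 of 15. Pluripotency factors had 1 of 17 called higher, TDGF1, and 0 lower. Other lists had calls too: imprinted genes 2 lower of 25 (PLAGL1 and RTL1), collagens 1 lower of 21, and PRC1 subunits 1 lower and 1 higher of 20. Potassium channels had 2 lower of 70, zinc finger genes of chromosome 19 had 2 lower and 1 higher of 210, and germline genes 1 higher of 13. Housekeeping genes (17 tested), ribosomal proteins (72) and histone genes (55) had 0. With the replicate block the counts were 10 lower for neural regulators, 10 lower and 1 higher for signalling, 3 lower for mesoderm and heart and 4 higher for pluripotency factors.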

How the data were processed

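H3K27me3, input and other marks were measured by native ChIP-seq, and RNA by RNA-seq, in H9 ESCs. The deposited ChIP-seq table held log2 RPM made by the authors, who trimmed reads (Trim Galore 0.4.0), aligned them to GRCh38 (Bowtie2 2.2.5), extended them by 200 bp and counted non-duplicated reads in windows of 2.5 kb either side of each start site in SeqMonk. Each ChIP-seq column is the authors' mean of the libraries, of which the labels list 2 and the study speaks of 3. The deposited RNA-seq table held log2 RPM per library, which the authors made with TopHat2 2.0.12 and SeqMonk, without strand. Both were turned into RPM, RNA genes without a read, entered as 0.9 read, were set to 0, and differences were taken as log2(RPM + 0.1), which understates the change of low genes. The window with the highest mean H3K27me3 of both genotypes was kept for each gene name, and 67.1% of windows overlap the one before. The feature names of 25 entries look like dates and were left as they are.

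RNA was tested with limma 3.58.1 in R 4.3.3 (a fit of all 12 libraries of 4 genotypes, intensity trend, mean of at least 0.1 RPM, Benjamini-Hochberg adjusted p under 0.05), and checked on simulated data. In RNA, 3 reads were 0.0534 to 0.0761 RPM. Libraries with the same number deviated together (r = 0.56, 0.11 and 0.35), so a fit with the number as a block is given beside counts and named genes whose calls it changed. The p-values measure the spread between libraries of a genotype. Where groups are said not to overlap, the share of all genes without overlap is not given, so this is a description only. Named genes were the 10 largest rises and 10 largest falls among promoters with at least 5 RPM in either genotype and an input difference within 0.5, at least 100 kb apart. HOX genes, EZH2, the neighbours of named genes, and the highest, lowest and most marked members of each list were also named. The members and lists were chosen with earlier results of these data known. Promoter classes joined to RNA, and their alternatives, were chosen after seeing the data. Alternatives changed the pseudocount, centring, input, the filter, the libraries and the fold. The result for 1 gene is not reported here, and it is left out of the plots by gene.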

Additional observations from a re-analysis of the deposited data

How the results depend on the processing

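The median H3K27me3 difference over all windows was -0.09 with a pseudocount of 1 RPM, -0.15 with none, -0.23 with the input difference subtracted and 0.08, reversed, with centring on windows not above input. The rises (1439) numbered 227 with a pseudocount of 1 RPM, 2294 with none, 3895 with centring and 8060 at a fold of 1.5. The falls (7074) numbered 371 with a pseudocount of 1 RPM, 3212 with centring, 12478 with input subtracted and 26796 at a fold of 1.5. Rises were 16.9% of the calls, 38% with a pseudocount of 1 RPM and 54.8% with centring. Rich promoters had a median of 0.35 with centring, -0.01, reversed, with input subtracted and 0.07 when classed by the EZH2+/+ columns, and HOX genes had 0.48 and 0.17 for the first and second of these. The input median was 0.05 with a pseudocount of 1 RPM and 0.09 with none. Marked promoters that rose (70) numbered 46 with a pseudocount of 1 RPM and 124 with centring, and those that fell (95) numbered 55, 50 and, with input subtracted, 148. RNA calls (236) numbered 46 with no filter, 594 with the replicate block and 23 from the 6 libraries alone. RNA called lower at rises (21) numbered 2 with no filter, 34 with the replicate block and 4 from the 6 libraries alone. RNA called higher at falls (3) numbered 0 with no filter, 6 after rescaling by the median ratio, 8 with the replicate block and 0 from the 6 libraries alone. Leaving out 1 library gave 64 to 602 calls in all, 10 to 34 at rises and 0 to 19 at falls, and a median RNA difference at rises of -1.53 to -1.01. That median was -0.87 with centred ChIP values. Near 0, PSMG4 reversed (0.07 after rescaling, -0.12 to 0.16 without 1 library), as did IGDCC4 (-0.07 to 0.41 without 1 library). The cause was not tested for any of these. The single ChIP columns and a low read depth for EZH2+/+ H3K27me3 limit the values of weakly marked windows.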
